A study of Mus musculus with 107 samples.

Results

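The genes described here encode 7 ligands of the B7 family, cell surface proteins by which tumor cells and antigen-presenting cells raise or restrain T cell activity. They were chosen by name in the deposited expression table, which held 50686 genes, and all 7 were found: Cd274, Pdcd1lg2, Cd80, Cd86, Cd276, Icosl and Vtcn1. Cd274 encodes PD-L1 and Pdcd1lg2 encodes PD-L2, the ligands of the inhibitory T cell receptor PD-1. Cd80 and Cd86 are the ligands of the costimulatory receptor CD28 and of the inhibitory receptor CTLA-4, and CD80 also binds PD-L1. Icosl encodes the ligand of the costimulatory receptor ICOS. Cd276 (B7-H3) and Vtcn1 (B7-H4) encode further members whose T cell receptors are less well settled. CD86 is carried mainly by macrophages, dendritic cells and B cells, PD-L1 can be carried by tumor cells and by immune cells and is induced by interferon gamma, and B7-H3 and B7-H4 are found on many carcinoma cells.

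The question put to the data was how these ligands were expressed in 12 mouse syngeneic tumor models, and how they differed after treatment with lenvatinib (LEN), an oral inhibitor of the VEGF and FGF receptors and other receptor tyrosine kinases. Cell lines were implanted under the skin of 7-week-old mice of the matching strain, and RNA of the tumors was sequenced. The Base group (35 tumors) was collected without treatment at about 100 mm3, the no treatment (NT) group (36 tumors) was taken from untreated mice on day 8, and the LEN group (36 tumors) was collected on the same day from mice that had been given 10 mg/kg LEN by mouth daily for 7 days. Each model had 3 tumors per group, except for Base MC38, which had 2. The models were hepatocellular carcinoma (BNL 1ME A.7R.1 in male BALB/cAnNCrlCrlj mice and Hepa 1-6 in male C57L/J mice), renal cell carcinoma (Renca and in vivo adapted RAG, both in female BALB/cAnNCrlCrlj mice), lung cancer (LL/2 in female C57BL/6JCrl and KLN205 in female DBA/2NCrl mice), colorectal cancer (CT26.WT in female BALB/cAnNCrlCrlj and MC38 in female C57BL/6NCrl mice), breast cancer (4T1 and EMT6 in female BALB/cAnNCrlCrlj mice), bladder cancer (MBT2 in female C3H/HeNCrl mice) and melanoma (B16-F10 in female C57BL/6NCrl mice). Every model is 1 cell line in 1 strain, so that the cell line and the host cannot be told apart. Expression is given as TPM, a relative measure of transcript abundance that sums to one fixed total per tumor, which corrects for transcript length and keeps no sequencing depth, so that the counting precision behind a value is unknown. These are whole tumors, in which fewer cells of a type and less RNA per cell cannot be told apart.

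The tumor types were checked against marker genes. The summed TPM of 4 melanocyte markers had a median of 5309 in Base B16-F10 tumors and of at most 2.06 in the other models. The sum of 5 hepatocyte markers was 3849 in Hepa 1-6 but 0.74 in BNL 1ME A.7R.1, so that the hepatocellular label of the latter was not reflected in these markers. The sum of 3 kidney tubule markers was 183 in Renca and 73.2 in RAG, against at most 10.2 elsewhere. The sum of 6 epithelial markers was low in B16-F10 (1.15), MBT2 (4.88), CT26.WT (6.28), MC38 (21.5) and LL/2 (46.1), although all but the first are labeled as cancers of epithelial organs. Hepa 1-6 Base tumors had the highest T cell marker sum (95.4) and the highest level of the leukocyte gene Ptprc (93.5 TPM).

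The genes of the 2 PD-1 ligands lie next to each other on mouse chromosome 19 (GRCm38), both on the plus strand. Cd274 (ENSMUSG00000016496) spans 29367455 to 29388095 and Pdcd1lg2 (ENSMUSG00000016498) spans 29410919 to 29471161, with a gap of 22.8 kb between them. Cd80 (ENSMUSG00000075122) spans 38455561 to 38496335 on the plus strand of chromosome 16, and Cd86 (ENSMUSG00000022901) spans 36603869 to 36666081 on the minus strand of the same chromosome. Cd276 (ENSMUSG00000035914) is on chromosome 9 (58524298 to 58555437, minus), Icosl (ENSMUSG00000000732) on chromosome 10 (78069302 to 78083913, plus) and Vtcn1 (ENSMUSG00000051076) on chromosome 3 (100825459 to 100896922, plus). All 7 are annotated as protein-coding.

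Because the levels of Cd274 and Pdcd1lg2 moved together in these tumors, the 250 bases before the RefSeq start of each gene are shown, from RefSeq for GRCm38.p6. The Cd274 stretch is chr19:29367188-29367437 and the Pdcd1lg2 stretch is chr19:29410669-29410918, both read on the plus strand from 5′ to 3′. Capitals mark matches to any of 4 motifs searched on both strands.
Cd274: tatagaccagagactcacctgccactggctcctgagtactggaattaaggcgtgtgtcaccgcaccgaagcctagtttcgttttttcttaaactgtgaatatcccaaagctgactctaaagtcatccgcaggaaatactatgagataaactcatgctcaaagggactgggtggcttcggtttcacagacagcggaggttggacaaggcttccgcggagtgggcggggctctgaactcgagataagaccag
Pdcd1lg2: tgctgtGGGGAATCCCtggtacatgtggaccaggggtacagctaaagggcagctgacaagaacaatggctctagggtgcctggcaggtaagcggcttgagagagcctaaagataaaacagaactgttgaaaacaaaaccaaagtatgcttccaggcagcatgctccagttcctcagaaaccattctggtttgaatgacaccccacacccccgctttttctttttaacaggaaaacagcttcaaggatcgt
The motifs were the gamma-activated site (TTC, any 3 bases, GAA), the interferon-stimulated response element (GAAA, any 2 bases, GAAA), the NF-kB site (GGG, any 5 bases, CC) and the AP-1 site (TGA, any base, TCA). The capitals in Pdcd1lg2 are 1 match to the NF-kB letters, and no match to the 4 motifs was present in these 250 bases of Cd274. Of 6 members with a RefSeq stretch, Cd276 held 9 NF-kB matches, some overlapping, Icosl held 2, Cd80 held 2 and 1 AP-1 match, and Vtcn1 held none. RefSeq starts can differ from those of the spans given above: the stretches of Cd80 and Cd276 lie inside these spans and that of Icosl partly so. Among 32536 such stretches of all genes, 46.0% held the NF-kB letters, 7.04% the gamma-activated site, 6.73% the AP-1 site and 2.98% the response element. Neither interferon motif matched in any of the 6.

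In Base tumors, Cd276 and Cd274 were the most expressed members and Vtcn1 the least. Over the 35 tumors, Cd276 ranged from 5.52 to 43.0 TPM with a median of 21.7, Cd274 from 1.05 to 114 with a median of 10.9, and Cd86 from 1.04 to 17.1 with a median of 5.53. Icosl had a median of 4.77 TPM, Cd80 of 2.63, Pdcd1lg2 of 1.81 and Vtcn1 of 0.07. Over the tumors of all groups, Cd276 was the highest member in 60 and Cd274 in the other 47, and Cd274 was above Pdcd1lg2 in every tumor. Vtcn1 was listed at 0 in 44 tumors. The level of each of the 7 genes differed between the Base models by the F test of limma on log2(TPM + 1), with adjusted p from 4.6e-16 for Vtcn1 to 1.5e-08 for Cd86, where 86.1% of 25664 genes tested did. All adjusted p-values are from limma with Benjamini-Hochberg adjustment over every gene tested and a threshold of 0.05.

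**Figure D1:**
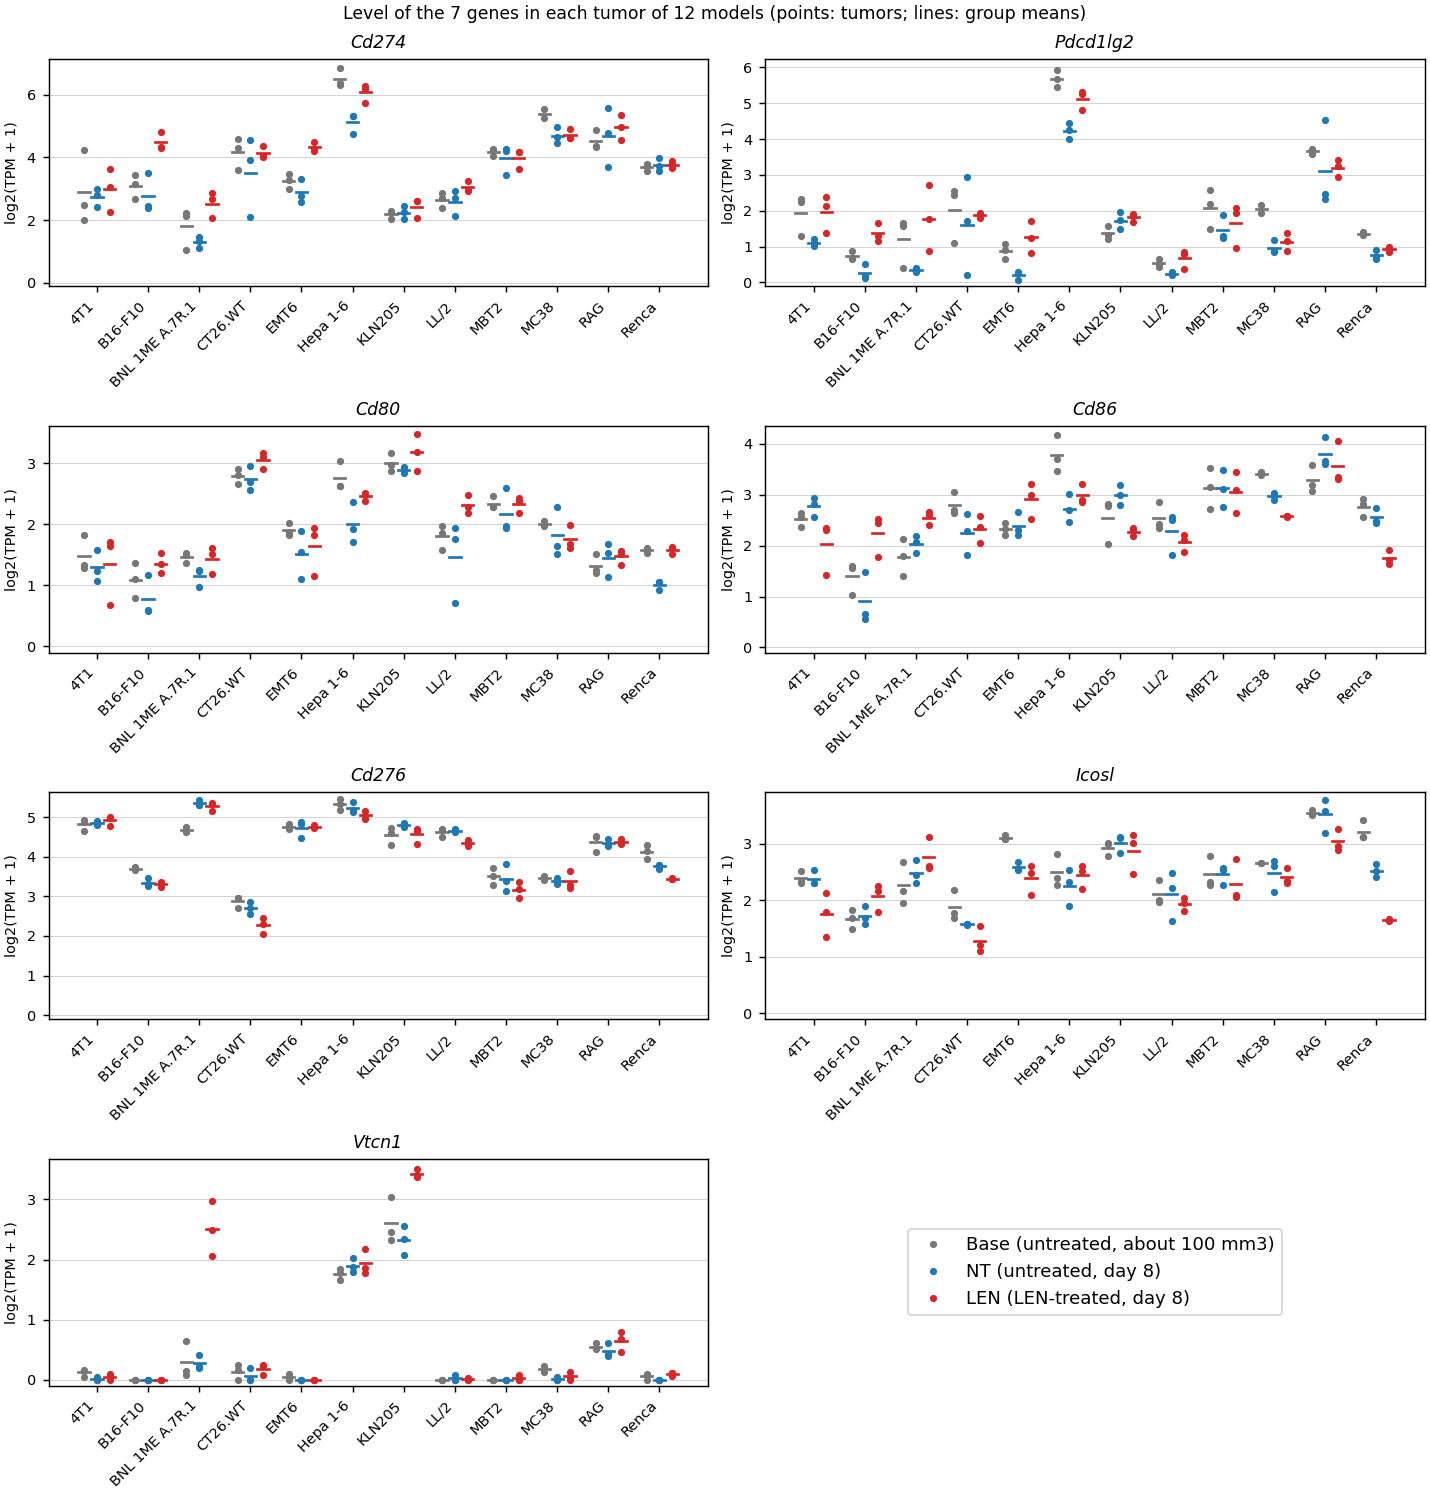
Level of each member, as log2(TPM + 1), in every tumor (points) of the 12 models, by group, with group means as lines. Cd274 and Pdcd1lg2 were highest in Hepa 1-6, and Vtcn1 stood clearly above 0 only in KLN205, Hepa 1-6 and, after LEN, BNL 1ME A.7R.1, with lower values in RAG.

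The models were ordered by their mean log2(TPM + 1), and neighbors in the order were called apart where no tumor of one overlapped the tumors of the next. Of 77 neighboring pairs, 19 were apart, where 13.7% of pairs over all genes were. After rescaling by the upper quartile 20 were apart, but Hepa 1-6 then overlapped its lower neighbor for Cd86 and Cd276, and RAG and LL/2 did for Cd274. Cd274 was highest in Hepa 1-6, where the 3 Base tumors had 81.9, 78.9 and 114 TPM. MC38 followed with 45.2 and 37.4 TPM and RAG with 28.5, 19.2 and 19.7, and each of these 3 models was apart from the next. MBT2 (17.2 ± 1.39, SD, n = 3), CT26.WT (17.6 ± 6.01) and Renca (12.0 ± 0.977) overlapped in turn. They were followed by EMT6 (8.61 ± 1.57), B16-F10 (7.71 ± 2.20), 4T1 (8.47 ± 8.22) and LL/2 (5.35 ± 1.05). The wide spread in 4T1 came from 1 tumor at 17.9 TPM beside 2.97 and 4.53. KLN205 (3.55 ± 0.426) and BNL 1ME A.7R.1 (2.72 ± 1.46) were lowest and overlapped.

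Pdcd1lg2 was led by the same Hepa 1-6 tumors, with 50.1, 42.8 and 60.3 TPM, and by RAG with 12.2, 11.8 and 11.03. These models were apart from their lower neighbors, whereas every other pair of neighbors overlapped. CT26.WT (3.48 ± 2.04, SD, n = 3), MBT2 (3.42 ± 1.57), MC38 (3.13 ± 0.424, n = 2) and 4T1 (3.05 ± 1.40) were next, and the lowest means were those of EMT6 (0.843 ± 0.267), B16-F10 (0.660 ± 0.139) and LL/2 (0.457 ± 0.112). The ratio of Cd274 to Pdcd1lg2, both per length, had its lowest Base medians in BNL 1ME A.7R.1 (1.75), RAG (1.79) and Hepa 1-6 (1.84) and its highest in MC38 (13.4), LL/2 (12.7) and B16-F10 (12.0).

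The CD28 and CTLA-4 ligands had different orders. Cd80 was highest in KLN205, whose Base tumors had 6.83, 6.28 and 8.01 TPM, followed by CT26.WT (5.93 ± 0.589, SD, n = 3) and Hepa 1-6 (5.85 ± 1.18), and these 3 overlapped. MBT2 (4.07 ± 0.364) was apart on both sides. The remaining models lay between 3.02 in MC38 and 1.15 in B16-F10, all overlapping their neighbors. Cd86 was highest in Hepa 1-6 with 10.0, 12.0 and 17.1 TPM, apart from MC38 (9.66 ± 0.325, n = 2). The following models overlapped in turn down to EMT6 (4.01 ± 0.405), which was apart from BNL 1ME A.7R.1 (2.5 ± 0.845), and the latter overlapped B16-F10 (1.68 ± 0.552).

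Cd276 was highest in Hepa 1-6 as well, with 43.0, 35.1 and 39.2 TPM. The next 7 models, from 4T1 (27.4 ± 2.92, SD, n = 3) to Renca (16.6 ± 2.09), overlapped in turn and were apart from B16-F10 (12.0 ± 0.387), MBT2 (10.5 ± 1.68) and MC38 (10.1 ± 0.502, n = 2). CT26.WT was lowest and apart, with 5.52, 6.84 and 6.83 TPM. Icosl was highest in the renal model RAG, at 11.1, 10.5 and 10.4 TPM, followed by Renca (8.36 ± 1.2) and EMT6 (7.64 ± 0.272), which overlapped, and by KLN205 (6.66 ± 0.652). Its lowest means were those of CT26.WT (2.71 ± 0.706) and B16-F10 (2.20 ± 0.380). Vtcn1 reached 7.19, 4.00 and 4.52 TPM in the Base tumors of KLN205 and 2.43, 2.17 and 2.58 in those of Hepa 1-6, and these models were apart from each other and from the rest. In RAG it was 0.52, 0.42 and 0.44 TPM. The highest other Base tumor was 1 of BNL 1ME A.7R.1 at 0.56 TPM, and Vtcn1 was listed at 0 in every Base tumor of B16-F10, LL/2 and MBT2.

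Over the 12 Base means of log2(TPM + 1), Cd274 went with Pdcd1lg2 (Pearson's r = 0.80, Spearman's rho = 0.77) and with Cd86 (r = 0.82, rho = 0.84). Without the 2 models farthest from the median of Cd274, these r were 0.66 and 0.68. For Cd274 and Cd276, r was -0.11 (rho = -0.28) over the 12 models and -0.60 without those 2 models. Within the 36 groups, that is over the deviations of single tumors from their group means, r was 0.73 for Cd274 with Pdcd1lg2, 0.59 for Cd86 with Icosl, 0.55 for Cd80 with Icosl and -0.15 for Cd274 with Cd276. Cd86 followed Ptprc across Base models (r = 0.92) and within groups (r = 0.71), and Cd274 followed the mean level of 6 T cell markers (r = 0.91 and 0.73). Pdcd1lg2 also followed the T cell markers (r = 0.87 and 0.73). For Cd276, r with Ptprc was 0.06 across Base models and 0.15 within groups, while r was 0.61 and 0.22 with the epithelial markers, 0.49 and 0.36 with the fibroblast markers and 0.30 and 0.50 with the endothelial markers. For Icosl, r with Ptprc was 0.49 and 0.68 and with the macrophage markers 0.48 and 0.56. Across Base models without the 2 farthest from the median of Icosl, these r were only 0.19 and -0.02. With the kidney tubule markers, r of Icosl was 0.645 across Base models, 0.529 without those 2 models and -0.003 within groups. With the epithelial markers it was 0.485, 0.498 and 0.03. These values describe libraries that share cell lines, hosts and the TPM scale, and no test was attached to them.

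The genes whose group means were most like those of each member were taken from 13600 genes over the 36 group means. For Cd274 they included the interferon-inducible GTPase gene Iigp1 (r = 0.88, rho = 0.90) and the chemokine gene Cxcl9 (0.88, 0.86). For Pdcd1lg2 they were the chemokine gene Ccl1 (0.90, 0.68), H2-M2 (0.90, 0.62), a class I-like gene of the major histocompatibility complex, and the T cell inhibitory receptor gene Lag3 (0.89, 0.80). Those like Cd86 included the leukocyte receptor gene Lair1 (0.91, 0.88) and Zc3h12d (0.91, 0.91). Vtcn1 was closest to the epithelial transcription factor gene Ehf (0.95, 0.75), to Casz1 (0.94, 0.74) and to Mal2 (0.93, 0.64). By r, likeness was weaker for Cd276, led by Id3 (0.87, 0.90), Bcl9 (0.85, 0.91) and Midn (0.84, 0.85), for Cd80, led by Ly6c1 (0.82, 0.83), Foxa1 (0.81, 0.67) and Sncg (0.76, 0.66), and for Icosl, led by Slc29a3 (0.80, 0.80), Cds1 (0.80, 0.86) and Cables1 (0.80, 0.81).

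**Figure D2:**
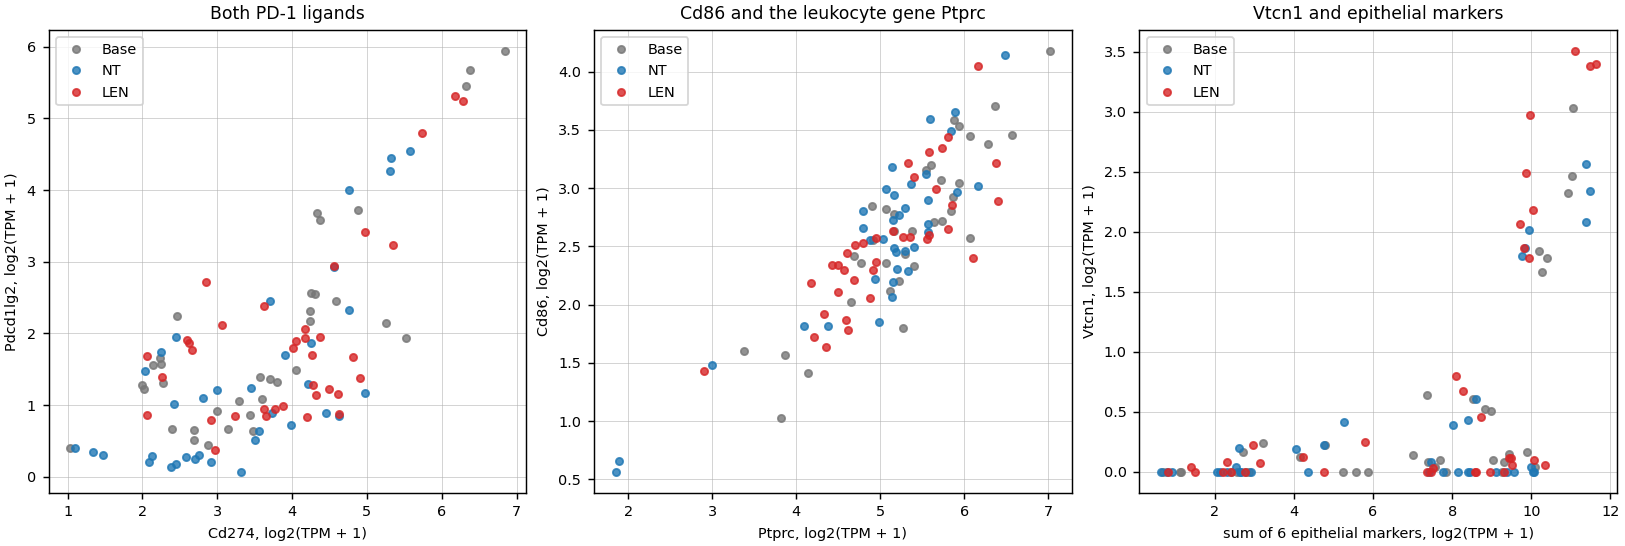
Each point is 1 tumor, colored by group, on log2(TPM + 1) axes. Left, Pdcd1lg2 against Cd274; middle, Cd86 against Ptprc; right, Vtcn1 against the sum of 6 epithelial markers, where every tumor with Vtcn1 above 1 on this scale had an epithelial sum near the upper end while many tumors with such sums had Vtcn1 near 0.

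After 7 days of LEN, both PD-1 ligands were higher than in NT tumors on average over the models. Cd274 rose by 0.59 ± 0.11 (SE) on the log2(TPM + 1) scale (adjusted p = 2.4e-05) and Pdcd1lg2 rose by 0.56 ± 0.11 (adjusted p = 0.00017), each with a positive difference in 12 of 12 models. Cd80 rose by 0.30 ± 0.07 (adjusted p = 0.00085, positive in 11 models) and Vtcn1 by 0.32 ± 0.03 (adjusted p = 3.2e-11, positive in 9). Cd276 fell by 0.15 ± 0.03 (adjusted p = 0.00071, negative in 9) and Icosl fell by 0.18 ± 0.06 (adjusted p = 0.019, negative in 9). Cd86 showed a mean difference of -0.04 ± 0.07 that did not pass (adjusted p = 0.77), and its differences were positive in 5 models and negative in 7. The calls were 4 of 7 members higher, where 10.7% of 25636 genes were, and 2 lower, where 7.56% were. After rescaling by the upper quartile the calls over all genes were 2648 higher and 3417 lower, and over protein-coding genes 2901 and 3031, against 2747 and 1938 as deposited. The direction of each of the 7 mean differences was the same under both rescalings. These rises and falls are against NT, and LEN was not tested against Base. Median TPM over the Base, NT and LEN tumors was 10.9, 9.425 and 16.3 for Cd274. It was 1.81, 0.945 and 2.245 for Pdcd1lg2 and 2.63, 2.065 and 2.41 for Cd80.

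The effect of LEN differed between models for Cd86 (adjusted p = 1.4e-05, limma F test of 11 contrasts), Vtcn1 (8.7e-18), Icosl (0.012) and Cd274 (0.042), where 28.7% of genes were called. It was not called for Cd276 (0.099, but 0.018 after rescaling over protein-coding genes), Pdcd1lg2 (0.31, but 0.045 with a pseudocount of 0.1) or Cd80 (0.43). The call of Cd274 was lost with no minimum on expression (adjusted p = 0.058) and in 33 of 72 fits that each left out 1 tumor, with adjusted p up to 0.089. Over single models, 11 of 84 pairs of member and model were called, 7 higher and 4 lower, where 3.42% and 2.19% of all pairs of gene and model were. In the models with a higher member call, 17.5% of genes were called higher in BNL 1ME A.7R.1, 7.13% in B16-F10, 1.3% in EMT6 and 1.02% in KLN205, and in those with a lower one, 9.81% were called lower in 4T1 and 4.45% in Renca. Most calls over all genes thus ran in the direction of the members' calls in BNL 1ME A.7R.1 (4490 higher and 869 lower), B16-F10 (1829 and 417), EMT6 (332 and 194), 4T1 (499 and 2515) and Renca (843 and 1140), and against it in KLN205 (261 and 559). After rescaling by the upper quartile the counts were 2810 and 1988 in BNL 1ME A.7R.1, 279 and 540 in EMT6 and 1540 and 1342 in Renca, and over protein-coding genes 3416 and 1532 in BNL 1ME A.7R.1, 1748 and 951 in B16-F10, 252 and 616 in EMT6, 1838 and 2152 in 4T1 and 468 and 643 in KLN205. The share of all genes called in either direction was 20.9% in BNL 1ME A.7R.1, 11.8% in 4T1, 8.76% in B16-F10, 8.2% in Hepa 1-6, 7.74% in Renca, 3.2% in KLN205, 2.05% in EMT6, 1.76% in MBT2, 1.03% in RAG, 0.956% in LL/2, 0.558% in MC38 and 0.413% in CT26.WT. The 3 LEN tumors lay wholly above the 3 NT tumors in 20 pairs and wholly below in 11, where 10.4% and 8.84% of all pairs of gene and model did.

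**Figure D3:**
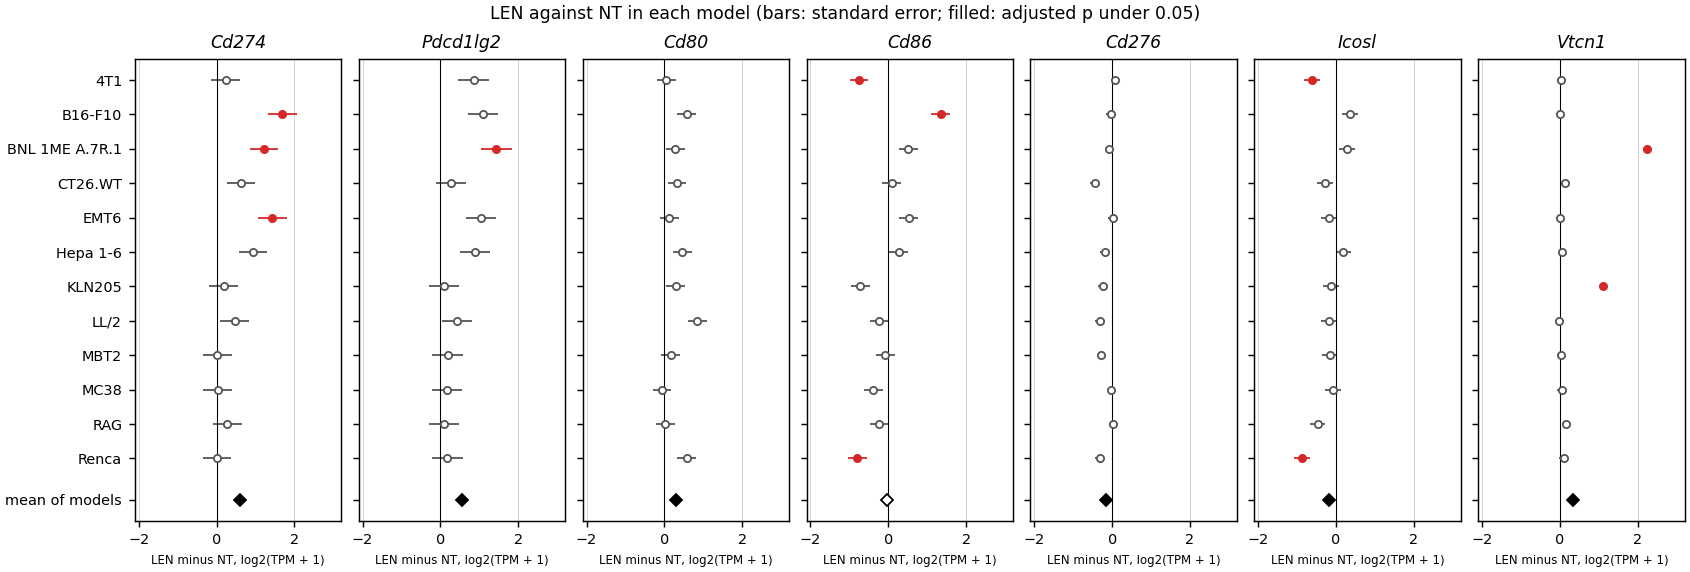
Difference between LEN and NT in log2(TPM + 1) for each member in each model (circles) and for the mean of the 12 models (diamonds), with the standard error as bars. Filled symbols had an adjusted p under 0.05. Circles of Cd274 and Pdcd1lg2 lie at or to the right of 0 in every model, while those of Cd86 lie on both sides.

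Cd274 rose most in B16-F10, from 4.23, 10.3 and 4.46 TPM in NT to 27.2, 19.0 and 18.5 in LEN (1.69 ± 0.37, SE, adjusted p = 0.00084). In EMT6 it rose from 8.96, 5.78 and 5.01 to 21.6, 17.4 and 18.3 TPM (1.43 ± 0.37, adjusted p = 0.027). In BNL 1ME A.7R.1, the model with the lowest Base level, it rose from 1.53, 1.77 and 1.15 to 3.16, 5.35 and 6.23 TPM (1.22 ± 0.37, adjusted p = 0.012). The tumors of the 2 groups did not overlap in any of these models. Hepa 1-6 tumors also did not overlap, with 38.7, 26.1 and 39.2 TPM in NT and 71.2, 76.9 and 52.5 in LEN, but the difference of 0.93 did not pass (adjusted p = 0.11). Cell markers that moved in B16-F10 are given with Cd86 and with the lists. In MBT2, MC38 and Renca the differences were 0.02, 0.03 and 0.01 and the groups overlapped. The call in EMT6 was kept in only 1 of 6 fits that each left out 1 of its tumors (adjusted p up to 0.13, without NT replicate 4), and the call in BNL 1ME A.7R.1 was lost without NT replicate 4 (0.056) or LEN replicate 5 (0.072).

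Pdcd1lg2 was called in BNL 1ME A.7R.1, where it rose from 0.27, 0.23 and 0.32 to 0.82, 2.41 and 5.57 TPM (1.44 ± 0.39, SE, adjusted p = 0.0051), a call lost without LEN replicate 5 (0.11) and when the model was fitted alone (0.053). LEN tumors also lay above all NT tumors in B16-F10 (0.10, 0.42 and 0.13 against 2.18, 1.21 and 1.44 TPM), EMT6 (0.05, 0.23 and 0.21 against 1.34, 0.78 and 2.26), 4T1 (1.03, 1.32 and 1.15 against 3.35, 1.62 and 4.21), Hepa 1-6 (18.2, 15.0 and 20.7 against 38.6, 37.0 and 26.9) and LL/2, none of which passed the test (adjusted p from 0.076 to 0.82). The lowest Pdcd1lg2 levels are close to 0, where the added pseudocount of 1 compresses differences. In BNL 1ME A.7R.1, Ptprc was 30.7 to 34.4 TPM in NT and 46.6 to 67.8 in LEN. In 4T1 it overlapped, from 28.4 to 38.4 TPM in NT and from 6.47 to 29.2 in LEN. The part of leukocytes in the rise of Pdcd1lg2 was not tested.

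Cd80 was called in no single model, and its mean rise was spread over models. LEN tumors lay above all NT tumors in LL/2 (2.38, 0.63 and 2.85 against 3.54, 3.84 and 4.60 TPM, difference 0.85, adjusted p = 0.070), Renca (1.07, 0.89 and 1.08 against 1.84, 2.07 and 2.08, difference 0.57, adjusted p = 0.16), B16-F10 and Hepa 1-6.

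Cd86 rose in B16-F10 from 0.48, 1.80 and 0.58 to 4.72, 2.44 and 4.43 TPM (1.34 ± 0.24, SE, adjusted p = 5.1e-05) and fell in Renca from 4.61, 5.63 and 4.46 to 2.11, 2.30 and 2.79 (-0.79 ± 0.24, adjusted p = 0.028) and in 4T1 from 4.89, 6.09 and 6.66 to 3.92, 1.69 and 4.07 (-0.75 ± 0.24, adjusted p = 0.033). Macrophage markers moved with it in these 3 models, and Ptprc did so without overlap in B16-F10 and Renca. In B16-F10, Ptprc was 2.61, 7.00 and 2.71 TPM in NT and 24.9, 23.6 and 23.3 in LEN, and 7 of 7 macrophage markers and 5 of 5 fibroblast markers were called higher, the fibroblast sum being 78.8 to 95.8 TPM in NT and 250 to 358 in LEN. In Renca, Ptprc was 34.9, 34.5 and 35.5 TPM in NT and 19.4, 17.5 and 19.0 in LEN, and 6 of 7 macrophage markers were called lower. In 4T1, 6 of 7 macrophage markers were called lower as well, their sum being 753, 809 and 940 TPM in NT and 623, 302 and 459 in LEN. Ptprc overlapped there, with 28.4, 38.4 and 34.9 TPM in NT and 29.2, 6.47 and 20.4 in LEN. No macrophage marker was listed at 0 throughout any of these groups. Not every leukocyte list moved this way: in Renca the neutrophil sum lay between 14.3 and 15.1 TPM in NT and between 29.3 and 39.3 in LEN, and the T cell sum was also higher in LEN, although the 1 T cell marker called there was lower. In CT26.WT the macrophage sum was lower in LEN (313 to 358 TPM) than in NT (536 to 605), while Cd86 had a difference of 0.09. The part of these cells in the change of Cd86 was not tested. The call in Renca was kept in only 1 of 6 fits without 1 of its tumors (adjusted p up to 0.12, without NT replicate 3), and the call in 4T1 was lost without NT replicate 2 (0.11), NT replicate 3 (0.14) or LEN replicate 4 (0.47). Fitted alone, B16-F10 gave an adjusted p of 0.0504 and 4T1 of 0.73.

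Icosl was called in Renca and 4T1. In Renca it went from 5.27, 4.32 and 4.75 to 2.14, 2.10 and 2.18 TPM (-0.88 ± 0.20, SE, adjusted p = 0.0020), with little spread among the LEN tumors. In 4T1 it went from 3.98, 4.80 and 3.97 to 3.38, 1.56 and 2.49 TPM (-0.63 ± 0.20, adjusted p = 0.033), which was lost without NT replicate 2 (0.14), NT replicate 3 (0.072) or LEN replicate 4 (0.40) and when 4T1 was fitted alone (0.73). In both models 6 of 7 macrophage markers were called lower. Their sum in Renca lay between 803 and 908 TPM in NT and between 376 and 413 in LEN. The macrophage sum was also lower without overlap in CT26.WT, LL/2, MC38 and KLN205. In MC38 it was 423 to 724 TPM in NT and 278 to 366 in LEN, and in KLN205 537 to 621 and 297 to 380. Icosl lay wholly lower in CT26.WT (difference -0.29, not called). Icosl overlapped in LL/2 (-0.18), MC38 (-0.08) and KLN205 (-0.14). The part of these cells in the fall of Icosl was not tested. The mean fall of Icosl depended on a few models: it was -0.12 without Renca (adjusted p = 0.21) and also did not pass without 4T1 (0.080) or RAG (0.062). An exact two-sided sign-flip permutation test over the 12 model differences gave an unadjusted p of 0.11, against 0.015 for Cd276 and 0.00049, the smallest this test can give, for Cd274 and Pdcd1lg2.

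Cd276 was called in no single model. LEN tumors lay below all NT tumors in CT26.WT (4.86, 5.56 and 6.31 against 3.89, 4.49 and 3.13 TPM, difference -0.45, adjusted p = 0.077), Renca (12.9, 12.0 and 12.8 against 9.84, 10.0 and 9.79, difference -0.32, adjusted p = 0.092), LL/2 (24.1, 24.9 and 23.7 against 19.1, 18.3 and 20.6) and KLN205. In 4T1, EMT6 and RAG the differences were 0.07, 0.02 and 0.03. Endothelial markers moved with it, 4 of 4 being called lower in Renca, 3 in LL/2 and 2 each in CT26.WT and KLN205, but each of the 4 had a lower mean under LEN in 12 of 12 models, and 4 of 4 were called lower in BNL 1ME A.7R.1, where Cd276 had a difference of -0.07, 3 in 4T1 and 2 in RAG. The macrophage sum was also lower without overlap in the models where Cd276 was. It was 536 to 605 TPM in NT and 313 to 358 in LEN in CT26.WT. In Renca it was 803 to 908 and 376 to 413. In LL/2 its medians were 544 and 247, and in KLN205 570 and 313. It was lower without overlap in 4T1 and MC38 too, where Cd276 had differences of 0.07 and -0.02. Within groups, r of Cd276 with the macrophage markers was 0.33. The part of endothelial cells or macrophages in the fall of Cd276 was not tested. Its mean fall passed without each model and without each tumor in turn, with values from -0.17 to -0.12.

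Vtcn1 changed in 2 models. In BNL 1ME A.7R.1 it rose from 0.33, 0.17 and 0.14 to 6.85, 3.18 and 4.60 TPM (2.23 ± 0.11, SE, adjusted p = 3.0e-23), where the Base tumors had 0.10, 0.06 and 0.56. In KLN205 it rose from 3.22, 4.90 and 4.05 to 9.39, 9.55 and 10.3 TPM (1.10 ± 0.11, adjusted p = 4.0e-10), while fitting KLN205 alone gave an adjusted p of 0.092. These errors rest on 1 spread pooled over all groups of the fit. Many groups had Vtcn1 at or near 0, with an SD of 0 in NT and LEN tumors of EMT6 and B16-F10. In BNL 1ME A.7R.1 the SD of log2(TPM + 1) was 0.119 in NT and 0.455 in LEN. The small errors and p-values of Vtcn1, also in its mean and F tests, thus do not measure the spread among tumors that express it. In Hepa 1-6, with 3.05, 2.65 and 2.48 TPM in NT and 2.64, 2.44 and 3.53 in LEN, the groups overlapped. The mean over models was 0.15 without BNL 1ME A.7R.1, and no model other than these 2 had a difference above 0.17. Epithelial markers moved with Vtcn1 in BNL 1ME A.7R.1. Their sum was 128, 166 and 164 TPM in Base, 37.2, 26.1 and 15.6 in NT and 993, 833 and 925 in LEN, and 3 of 6 markers were called higher. Cdh1, the gene of E-cadherin, went from 4.88, 4.57 and 3.38 to 107.3, 78.0 and 94.1 TPM, and the keratin gene Krt8 from 17.9, 12.2 and 7.67 to 520, 444 and 492. Krt5 and Krt14 were listed at 0 in the 3 NT tumors and reached at most 0.54 and 3.80 TPM in LEN. Skeletal muscle markers also rose there, all 3 of 3 being called, with the muscle actin gene Acta1 at 46.4, 57.6 and 16.9 TPM in NT and 893, 632 and 733 in LEN. In KLN205 the epithelial sum was 2674, 2692 and 2866 TPM in NT and 2879, 3161 and 2202 in LEN, and none of the 6 was called. The part of epithelial or muscle RNA in the rise of Vtcn1 was not tested.

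The other genes of the pathway were taken as lists. All 4 receptor genes rose in the mean LEN effect, with 0.47 for Ctla4, 0.45 for Icos, 0.28 for Pdcd1, which encodes PD-1, and 0.24 for Cd28 (adjusted p from 2.3e-05 to 0.027), and the list median was 0.36. Vsir, which encodes the B7-like protein VISTA, had a difference of -0.06 that did not pass (adjusted p = 0.51). Of 12 genes of interferon gamma signaling and response, 9 were called higher and 0 lower, with a median of 0.27 against 0.00043 over all genes. They included Cxcl9 (0.66), Gbp2 (0.58) and Socs1 (0.41), whereas Ifng itself had a difference of 0.23 that did not pass (adjusted p = 0.060). Of the 6 genes whose proteins act on PD-L1 protein, Cmtm6 (0.11) and Cmtm4 (0.11), which protect it from degradation, were called higher, and Spop, Stub1, Gsk3b and Cops5 (differences from -0.03 to 0.06) were not called. Among NF-kB subunits, Relb (0.15) and Rela (0.11) were called higher, and Nfkb1, Nfkb2 and Rel (0.04 to 0.07) were not called. At the level of cell markers, 5 of 6 T cell, 3 of 7 dendritic cell and 4 of 5 neutrophil markers were called higher and 6 of 7 macrophage markers lower, with list medians of 0.34, 0.09, 0.47 and -0.39, while Ptprc had a difference of 0.05 that was not called. Markers of other cell types moved as well: 3 of 3 skeletal muscle markers (median 1.15) and 4 of 6 epithelial markers (0.47) were called higher and 4 of 4 endothelial markers lower (-0.79), and of 5 fibroblast markers 1 was called in each direction. Each endothelial marker was lower in 12 models. Of the epithelial calls, Krt8 and Krt18 were higher in only 7 models and lower in 5. The mean of Krt8 includes its large rise in BNL 1ME A.7R.1, given above. Over the tumors, the muscle sum ranged from 0.31 to 109.7 TPM in NT and from 0.24 to 1682 in LEN, the epithelial sum from 0.56 to 2866 and from 0.76 to 3161, and the endothelial sum from 20.2 to 110.9 and from 10.2 to 40.3. The muscle markers were called in BNL 1ME A.7R.1 and in B16-F10, where their sum was at most 12.4 TPM in NT and at least 90.8 in LEN. The part of these cells in the changes of the members was not tested. In the same way, the T cell sum ranged from 0.85 to 130 TPM in NT and from 1.80 to 119 in LEN, and the macrophage sum from 72.9 to 1651 in NT and from 244 to 1529 in LEN. Where Cd274 rose, in B16-F10, EMT6 and BNL 1ME A.7R.1, the T cell sum was 1.82, 3.87 and 0.85, then 5.16, 3.11 and 4.74, then 5.15, 8.11 and 5.27 TPM in NT, against 17.4, 13.2 and 15.3, then 10.5, 7.04 and 16.7, then 16.3, 16.1 and 19.0 in LEN. The T cell sum did not go with Cd274 in every model. In Renca it lay between 4.01 and 5.23 TPM in NT and between 6.42 and 8.65 in LEN, and in MBT2 between 17.9 and 25.4 in NT and between 11.8 and 14.6 in LEN, with Cd274 differences of 0.01 and 0.02. In Hepa 1-6 it overlapped, from 60.1 to 130 TPM in NT and from 92.3 to 119 in LEN, while Cd274 did not. The part of T cells in the rise of Cd274 was not tested.

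In untreated tumors, the PD-1 ligands and Cd80 were lower on day 8 (NT) than at about 100 mm3 (Base). Base tumors were sampled by volume and NT tumors by day, from different mice. Time, tumor size and sampling therefore cannot be told apart. This comparison of NT with Base shares the NT tumors with that of LEN with NT, so that the 2 are not independent. Pdcd1lg2 fell by 0.62 ± 0.11 (SE, adjusted p = 6.3e-05, negative in 11 of 12 models), Cd274 fell by 0.34 ± 0.12 (adjusted p = 0.037, negative in 9) and Cd80 fell by 0.27 ± 0.06 (adjusted p = 0.0011, negative in 11). Icosl (-0.13, adjusted p = 0.061), Cd86 (-0.12, 0.22), Vtcn1 (-0.05, 0.23) and Cd276 (-0.01, 0.82) did not pass, although Icosl passed after rescaling by the upper quartile (0.0057) or over protein-coding genes (0.0047). None of the 7 was called higher, where 11.7% of 25687 genes were, and 3 were called lower, where 11.4% were. Calls over all genes were 3002 higher and 2917 lower as deposited, 1500 and 4651 after rescaling by the upper quartile and 1275 and 5038 over protein-coding genes, and each mean difference of a member kept its direction under both rescalings. The call of Cd274 was lost with no minimum on expression (adjusted p = 0.053), without Hepa 1-6 (-0.24, 0.18), MC38 (0.085), EMT6 (0.071) or BNL 1ME A.7R.1 (0.065), and in 15 of 71 fits without 1 tumor (up to 0.059).

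**Figure D4:**
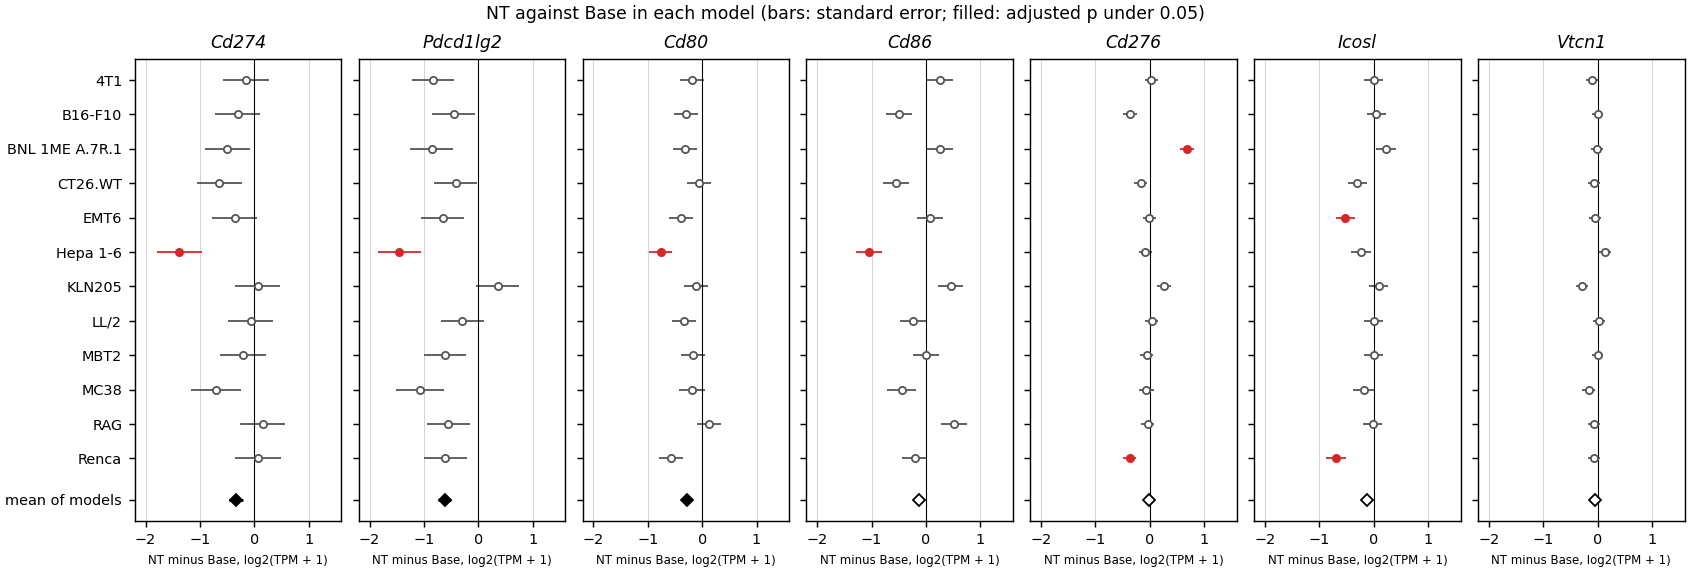
Difference between NT and Base in log2(TPM + 1) for each member in each model (circles) and for the mean of the 12 models (diamonds), with the standard error as bars. Filled symbols had an adjusted p under 0.05. Hepa 1-6 lies farthest to the left for Cd274, Pdcd1lg2, Cd80 and Cd86.

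The change between Base and NT differed between models for Cd276 (adjusted p = 0.00018) and Cd86 (0.0021), where 50.2% of genes were called, and the call of Cd86 was lost after rescaling by the upper quartile (0.079) or over protein-coding genes (0.052). It was not called for Icosl (0.058), Pdcd1lg2 (0.38), Cd80 (0.44), Cd274 (0.51) or Vtcn1 (0.64), although Vtcn1 passed under both rescalings (0.015 and 0.029) and Icosl over protein-coding genes (0.044). Over single models, 8 of 84 pairs were called, 1 higher and 7 lower, where 5.97% and 4.09% of all pairs of gene and model were. All genes were called in either direction at shares of 24.7% in EMT6, 20.7% in KLN205, 20.6% in BNL 1ME A.7R.1, 16% in Hepa 1-6, 9.81% in 4T1, 9.32% in LL/2, 8.55% in Renca, 4.39% in CT26.WT, 3.16% in RAG, 1.79% in B16-F10, 1.22% in MC38 and 0.424% in MBT2. NT tumors lay wholly above Base tumors in 3 pairs and wholly below in 21, where 12.0% and 11.9% of all pairs did.

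Hepa 1-6, which had the highest Base means of Cd274, Pdcd1lg2 and Cd86, held 4 of the 7 lower calls. Lower calls were the general direction there, with 320 genes called higher and 3792 lower (14.8%), but 1077 and 1412 after rescaling by the upper quartile and 782 and 1532 over protein-coding genes. Cd274 fell from the 3 Base values given above to 38.7, 26.1 and 39.2 TPM (-1.38 ± 0.42, SE, adjusted p = 0.017) and Pdcd1lg2 to 18.2, 15.0 and 20.7 TPM (-1.45 ± 0.39, adjusted p = 0.0076). Cd80 fell from 5.20, 5.14 and 7.22 to 2.79, 2.28 and 4.13 TPM (-0.76 ± 0.22, adjusted p = 0.011) and Cd86 to 5.48, 4.50 and 7.11 TPM (-1.05 ± 0.24, adjusted p = 0.0014). In each case the groups did not overlap. Ptprc was 93.5, 81.4 and 129 TPM in Base and 46.3, 38.4 and 70.9 in NT, and 7 of 7 macrophage markers were called lower there, their sum being 1124, 965 and 1391 TPM in Base and 513, 433 and 782 in NT, while 0 of 6 T cell markers were called. The part of these cells was not tested. Rescaling by the upper quartile or over protein-coding genes ended the calls of Cd274 (0.063 and 0.052) and Cd80 (0.068 and 0.057), and leaving out Base replicate 3 ended those of Cd274 (0.11), Pdcd1lg2 (0.054) and Cd80 (0.11), while leaving out NT replicate 3 ended those of Cd274 (0.11) and Cd80 (0.10). Fitting Hepa 1-6 alone ended all 4 (adjusted p from 0.051 to 0.13), and a pseudocount of 0.1 ended that of Pdcd1lg2 (0.099).

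The other member calls were in BNL 1ME A.7R.1, where 16% of genes were called higher, and in EMT6 and Renca, where 10.4% and 7.4% were called lower. Counts over all genes in these models were 4111 higher and 1173 lower, 3671 and 2670, and 294 and 1902 as deposited, against 2029 and 2373, 1470 and 5939, and 704 and 1153 after rescaling by the upper quartile and 1727 and 2645, 938 and 8110, and 713 and 1272 over protein-coding genes. Pdcd1lg2 was lower in every NT tumor than in every Base tumor in 4T1 (3.98, 1.44 and 3.72 against 1.03, 1.32 and 1.15 TPM), MC38 (2.83 and 3.43 against 0.85, 1.25 and 0.80), Renca, EMT6, B16-F10 and LL/2 as well, with no single call among these (adjusted p of 0.19 in 4T1 and 0.28 in MC38). Cd276 rose in BNL 1ME A.7R.1 from 26.0, 24.1 and 23.7 to 38.8, 38.8 and 42.3 TPM (0.68 ± 0.12, SE, adjusted p = 3.2e-05). In the same tumors the fibroblast sum was 3542 to 3721 TPM in Base and 6205 to 6902 in NT and the macrophage sum 327 to 526 and 1038 to 1072, while the epithelial sum was lower in NT, as given above. Cd276 fell in Renca from 14.5, 18.7 and 16.6 to 12.9, 12.0 and 12.8 TPM (-0.37 ± 0.12, adjusted p = 0.048), a call lost under both rescalings (0.21 and 0.23) and in 5 of 6 fits without 1 of its tumors (up to 0.26, without Base replicate 2). Icosl fell in Renca from 7.66, 9.75 and 7.68 to 5.27, 4.32 and 4.75 TPM (-0.69 ± 0.18, adjusted p = 0.0088), lost without Base replicate 2 (0.075) or NT replicate 3 (0.057). In EMT6 it fell from 7.95, 7.47 and 7.49 to 5.39, 4.89 and 4.79 TPM (-0.52 ± 0.18, adjusted p = 0.028), which was lost in 4 of 6 fits without 1 of its tumors (up to 0.080, without Base replicate 1). Across the 3 groups of Renca, Icosl did not overlap between any pair of groups. Other markers were lower in NT than in Base in Renca without overlap, with Ptprc at 56.2 to 66.0 against 34.5 to 35.5 TPM, the endothelial sum at 74.7 to 99.3 against 37.9 to 51.6 and the fibroblast sum at 1108 to 1681 against 258 to 544. The macrophage sum (1061 to 1197 against 803 to 908 TPM) was lower there as well. So were the T cell sum (11.3 to 13.2 against 4.01 to 5.23) and the dendritic cell sum (68.4 to 87.9 against 42.4 to 47.8). In EMT6 the endothelial sum was 60.7 to 106.8 TPM in Base and 32.4 to 59.4 in NT, and 4 of 7 dendritic cell markers were called lower. The part of these cells in the changes of Cd276 and Icosl was not tested.

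Of the other genes in this comparison, Icos (-0.36), Ctla4 (-0.32) and Cd28 (-0.22) were called lower and Pdcd1 had a difference of -0.01 that did not pass (adjusted p = 0.96). Vsir fell by 0.21 (adjusted p = 0.013). Of 12 interferon gamma genes, 4 were called lower and 0 higher, with a median of -0.24 against -0.0028 over all genes, and they were Cxcl9 (-0.75), Socs1 (-0.61), Ciita (-0.49) and Irf1 (-0.29). Of the 6 genes acting on PD-L1 protein, 5 were called higher, with Cmtm4 at 0.14, Gsk3b at 0.13, Cmtm6 at 0.12, Stub1 at 0.11 and Spop at 0.09, and Cops5 had a difference of 0.07 that was not called. Of the NF-kB subunits, Nfkb2 was called higher (0.10), and Relb (0.09), Rela (0.06), Nfkb1 (-0.02) and Rel (-0.0038) were not called. Among cell markers, 6 of 7 dendritic cell markers, 2 of 6 T cell markers and 2 of 7 macrophage markers were called lower and none of these lists had a higher call, while Ptprc fell by 0.35. The list with the lowest median was skeletal muscle, with 3 of 3 markers called lower (-1.33) and a sum from 0.14 to 481 TPM in Base against 0.31 to 109.7 in NT. Of the others, 3 of 4 endothelial, 2 of 5 fibroblast, 2 of 5 neutrophil, 1 of 6 epithelial and 1 of 4 melanocyte markers were called lower. Of 3 B cell markers tested, 1 was called higher. The part of these cells in the fall of the PD-1 ligands and Cd80 was not tested.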

How the data were processed

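RNA of whole tumors was depleted of ribosomal RNA and sequenced on NovaSeq and NextSeq instruments (which tumor ran on which is not given in the sources used here). The authors checked reads with FastQC, trimmed them with Trimmomatic 0.36, mapped them with STAR 2.5.2b to mm10 with Ensembl annotation and estimated abundance with RSEM 1.2.31, and the deposited values are TPM per gene. TPM keeps no depth. All tumors in the table were used.

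Values were analyzed as log2(TPM + 1) with limma 3.58.1 in R 4.3.3 with a trend of variance on level, keeping genes whose TPM averaged 0.1 or more in the tumors of a fit. The fits were 72 NT and LEN tumors, 71 Base and NT tumors, and 35 Base tumors. Contrasts were the mean over the 12 models, each model, and an F test between models. P-values were adjusted by Benjamini-Hochberg over all genes (threshold 0.05) and measure the spread between tumors, pooled over all groups of a fit. The code was tested on simulated data. Positions are from GENCODE M21 (GRCm38).

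Named genes are the 7 members, fixed lists (at most 4 called genes of a list over 6) and the 3 genes most like each member with a mean TPM of at least 1 and a gene symbol other than that of a predicted gene or RIKEN clone, and some genes that meet this rule are not reported here. Members and lists were chosen with earlier results of these data known. Alternatives were a pseudocount of 0.1, a minimum of 1 or none, 2 rescalings, no trend, all tumors in 1 fit, a replicate block, each model alone, sign-flip tests, and leaving out each tumor or model. Other tools were Python 3.11.15, numpy 2.4.6, pandas 2.3.3, scipy 1.17.1 and matplotlib 3.10.9.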

Additional observations from a re-analysis of the deposited data

Results flagged for a closer look

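The effect of LEN differed between the 12 models by limma's F test for Vtcn1 (adjusted p = 8.7e-18), Cd86 (adjusted p = 1.4e-05), Icosl (adjusted p = 0.012) and Cd274 (adjusted p = 0.042). Single-model differences on the log2(TPM + 1) scale ran from -0.02 in LL/2 to 2.23 in BNL 1ME A.7R.1 for Vtcn1, from -0.79 in Renca to 1.34 in B16-F10 for Cd86, from -0.88 in Renca to 0.35 in B16-F10 for Icosl, and from 0.01 in Renca to 1.69 in B16-F10 for Cd274. The change between Base and NT differed between models for Cd276 (adjusted p = 0.00018), from -0.37 in Renca to 0.68 in BNL 1ME A.7R.1, and for Cd86 (adjusted p = 0.0021), from -1.05 in Hepa 1-6 to 0.52 in RAG. This call of Cd86 was lost after rescaling by the upper quartile (0.079) or over protein-coding genes (0.052). The call of Cd274 for LEN was lost with no minimum on expression (0.058) and in 33 of 72 fits without 1 tumor. Single outlying tumors were not tested for.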

How the results depend on the processing

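Counts of called members were compared between the reported fits and their alternatives. The count for the mean LEN effect was 6 as reported and 6 in each of 72 fits without 1 tumor, and 5 or 6 without 1 model. The count for LEN differing between models was 3 to 4 without 1 tumor, and that of pairs called in single models 9 to 13. For NT against Base, the mean gave 2 to 4 calls without 1 tumor or 1 model, the F test 2 to 3, and single models 4 to 9, with 4 without Hepa 1-6 Base replicate 3 and 5 without Hepa 1-6 NT replicate 3, against 8 as reported. Fitting each model alone gave 5 such pairs. All 7 members were called in each of 35 fits of Base models without 1 tumor.

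With the replicate number as a block, 1 member was called in the mean of NT against Base and 5 pairs in single models, and the mean LEN effects of Cd80 (0.34, adjusted p = 0.062) and Icosl (-0.16, adjusted p = 0.28) did not pass. The block also ended the calls for LEN of Icosl between models (0.23), in Renca (0.067) and in 4T1 (0.82) and of Cd86 in 4T1 (0.51), and those for NT against Base of Cd274 (0.33) and Pdcd1lg2 (0.051) in the mean, of both in Hepa 1-6 (0.10 and 0.080) and of Icosl in EMT6 (0.11), while Pdcd1lg2 passed between models for LEN (0.0498). The numbers name different mice: deviations of same-numbered NT and LEN tumors correlated at a median of 0.013 (20 pairs, 0 over 0.1), and of Base and NT tumors at -0.015 (25 pairs, 1 over 0.1).

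The mean difference of Cd86 under LEN, not called, was 0.026 without 4T1, 0.030 without Renca and 0.023 without KLN205, and that of Cd276 for NT against Base, also not called, was 0.00030 without CT26.WT, 0.018 without Renca and 0.018 without B16-F10. Of the 21 most alike genes, 9 remained by Spearman's rho and 4 over the 12 Base means, where the cause was not tested. Rescaling moved the median of all genes by over 0.1 only in BNL 1ME A.7R.1 for LEN (-0.11, upper quartile) and, for NT against Base by the upper quartile and over protein-coding genes, in EMT6 (-0.14 and -0.21), KLN205 (-0.16 and -0.18), Hepa 1-6 (0.13 and 0.11) and CT26.WT (0.12 and 0.13). Vtcn1 could not be tested for NT against Base or between Base models with a minimum mean TPM of 1.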
